A study of Mus musculus with 24 samples.

Results

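The 49 genes described here encode the collagen chains and the lysyl oxidases of the mouse. They were chosen by name, as protein-coding genes whose symbol is Col, a number, a and a number, or Lox or Loxl with a number, and by no measured value. They are 49 of the 54532 genes counted, of which 22046 are protein-coding. There are 11 fibrillar collagen chains, 8 basement membrane chains (6 of type IV, with Col15a1 and Col18a1), 25 other collagen chains and 5 lysyl oxidases. All 49 had reads, and 47 of them were among the 18065 genes with counts high enough to test. Col6a4 and Col19a1 were not, with at most 18 and 9 reads in any library.

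The retinal pigment epithelium (RPE) was sampled from wild-type 129S1/SvlmJ mice, 3 at each of 8 times, all carrying Rpe65 Leu450, for a study of daily regulation of autophagy and lysosomal genes. The times were 0, 1, 3, 5, 6, 9, 15 and 16 h after lights came on, under a cycle with 12 h of light. Times of 1 to 9 h (15 mice, "day") lay in the light and 15 and 16 h (6 mice, "night") in the dark. The labels give neither age nor sex and name no transgene or treatment. The 3 samples of a time are labelled as biological replicates.

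Collagens are made of 3 chains wound into a triple helix. Fibrillar collagens assemble into the cables of stroma, type IV collagen forms the network of basement membranes, and lysyl oxidases cross-link collagen and elastin outside the cell. The RPE rests on Bruch's membrane, which has the basement membranes of the RPE and of the choroidal capillaries on its faces and collagen and elastin layers between them. The RPE itself makes part of these chains, while fibroblasts and vessels of the choroid and sclera are known sources of fibrillar collagen.

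Libraries held 14073440 to 17492470 counts. A pair of libraries stood apart, those of mouse 3 at 6 h and mouse 3 at 15 h. The TMM (trimmed mean of M-values) scaling factor was 0.73 in mouse 3 of 15 h, against 0.97 to 1.05 elsewhere. In that mouse 37 of the 47 tested genes lay below the mean of the other mice of the time, with a median difference of -0.72 on the log2 scale, and 22 had their lowest value of all 24 libraries. In mouse 3 of 6 h 22 of 47 lay below, with a median of 0.03, so the members as a whole were not shifted there. Its Col4a3 was at 132 CPM, against 382 and 342 CPM in the other mice of 6 h. Its summed macrophage and mast cell markers, 3183.8 CPM, were the highest of the 24 libraries. Tests over time, of night against day and against 0 h are given with 24 libraries and with 22 libraries, without this pair, where 18388 genes were tested. Correlations of gene pairs are tested with the 22. Summed RPE markers were 36290.9 to 57562.1 CPM by day and 40332.3 to 123205 CPM at night, the highest being mouse 3 of 15 h. Summed fibroblast and mural cell markers were 1978.8 ± 239 CPM at night (SD, n = 6) and 2011.2 ± 201 CPM by day (SD, n = 15), so these markers were present at all times. The 8 cartilage markers summed to 202 ± 42.8 CPM at night (SD, n = 6) and 214 ± 33.2 CPM by day (SD, n = 15), with Sox9, also expressed outside cartilage, at a mean of 189 CPM over 24 libraries. Of the others Chad (8.4 CPM), Comp (5.1 CPM), Matn3 (2.74 CPM) and Cnmd (2.09 CPM) were detected in all libraries, while Acan was at 0 in 7 libraries, Hapln1 in 4 and Matn1 in 23. In bulk tissue, fewer cells of a type and less RNA per cell cannot be told apart.

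Levels are compared between genes as counts scaled to a common library size (CPM) per kb of gene model. Type VIII collagen, a short-chain collagen that forms sheet-like lattices, stood at the top. Col8a2 had a mean of 397 CPM per kb over 24 libraries and Col8a1 176 CPM per kb. Together the 2 genes held 42.8% of the 7386.95 CPM that the 49 genes had in all. Col9a3, a chain of type IX collagen that lies on fibril surfaces in cartilage and vitreous, had 265 CPM per kb. Its partner chains Col9a1 and Col9a2 both had 1.36 CPM per kb, so the 3 chains of type IX were far from equal in level.

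Among basement membrane chains Col18a1, the source of the fragment endostatin, led with 87.7 CPM per kb. Col4a4 (33.2 CPM per kb) and Col4a3 (32.4 CPM per kb), chains of the network found in specialised basement membranes, came next and lay about equally high. The widely expressed chains Col4a2 and Col4a1 had 15.3 and 13.6 CPM per kb. Fibrillar chains were led by Col1a1 with 35.6 CPM per kb, Col1a2 with 21.96 CPM per kb and Col3a1 with 12.9 CPM per kb. The cartilage chain Col2a1 had 0.23 CPM per kb. Loxl1, the lysyl oxidase known for its part in elastic fibres, had 67.4 CPM per kb, and the other lysyl oxidases lay between 3.42 (Loxl3) and 7.27 CPM per kb (Loxl4). Col8a2, Col8a1, Col9a3, Col18a1, Col4a4 and Col4a3 together held 74.1% of the CPM of the 49 genes.

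**Figure D1:**
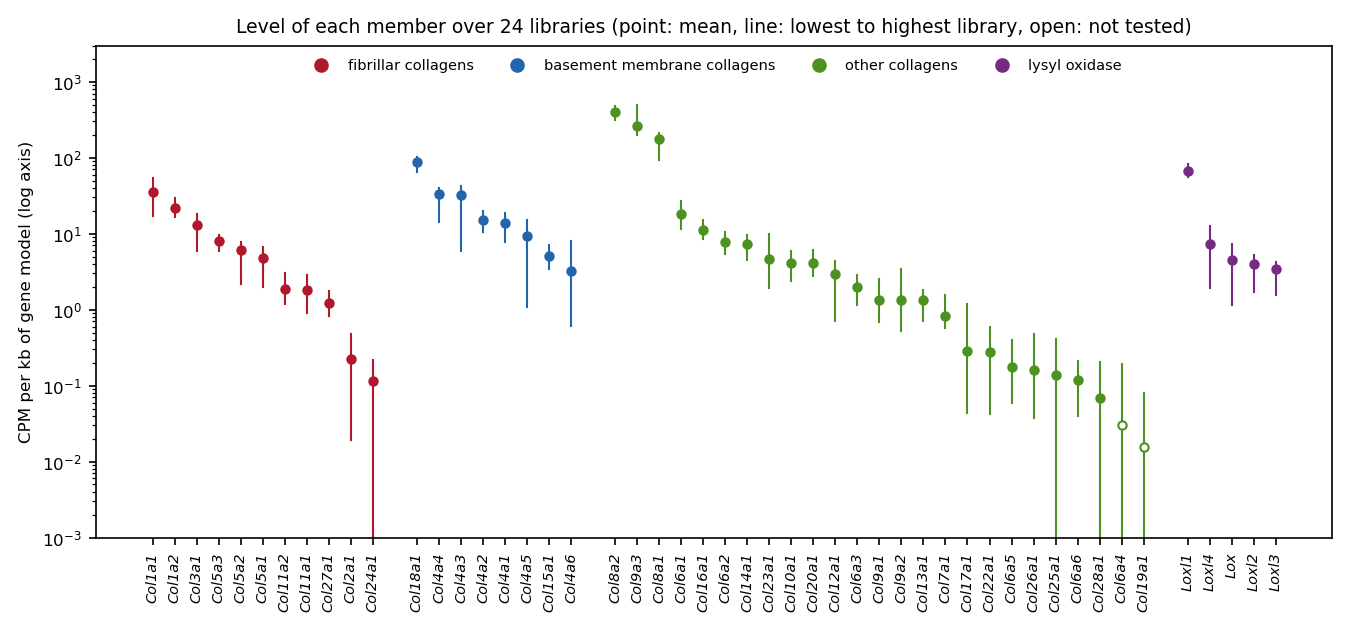
Mean level of each of the 49 genes (points, CPM per kb of gene model, log axis) over 24 libraries, with lines from the lowest to the highest library, grouped as fibrillar, basement membrane and other collagens and lysyl oxidases. Open points are the 2 genes that were not tested, and lines that reach the bottom of the axis have a lowest library at 0 or below the axis; Col8a2 with 397 CPM per kb is the highest point.

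Lox and 5 fibrillar chains were lower at night than by day. Lox, the founding member of the cross-linking enzymes, fell by 0.90 on the log2 scale (SE 0.16, edgeR adjusted p = 0.00507), which is 1.87-fold. The fibrillar chains were Col1a1 and Col3a1, of the type I and type III collagen of stromal fibrils, and Col5a1, Col5a3 and Col11a1, of the type V and XI collagens that nucleate fibrils. No member was called higher at night, where 0.88% of all genes tested were. The 6 calls are 6 of 47 members tested, where 0.509% of all genes tested were called lower at night and 1.39% were called in either direction. Of the groups, 5 of 11 fibrillar chains, 0 of 8 basement membrane chains, 0 of 23 other chains and 1 of 5 lysyl oxidases were called by edgeR. At an unadjusted p under 0.05, 1 basement membrane chain and 2 other chains passed, as did 3211 of the 18065 genes tested. DESeq2 added Col6a1, of the other chains, and limma-voom called the same 6 genes as edgeR. Leaving out mouse 1 or mouse 3 of 16 h left 2 and 3 calls. The median night difference was -0.26 for fibrillar chains, -0.10 for basement membrane chains, 0.08 for the other chains and -0.14 for lysyl oxidases, against -0.0051 for all genes tested. Without mouse 3 of 6 h and of 15 h, 7 members were called, all lower at night, where 1.89% of all genes tested were called lower, 2.75% higher and 4.63% in either direction. These were the same 6 genes and Loxl4. With 15 h alone as night in 22 libraries, Lox and Col5a3 kept the call, and Col1a1, Col3a1, Col5a1, Col11a1 and Loxl4 lost it.

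Lox was measured at 27.1, 26.5 and 23.99 CPM at 0 h, 28.6, 27.0 and 22.4 CPM at 1 h, and 26.4, 29.7 and 34.7 CPM at 3 h (mice 1, 2 and 3). It was at 21.7, 23.9 and 26.1 CPM at 5 h, 21.4, 20.4 and 21.7 CPM at 6 h, and 22.9, 18.2 and 19.6 CPM at 9 h. The night values were 15.3, 15.8 and 5.59 CPM at 15 h and 8.87, 15.5 and 16.0 CPM at 16 h. The highest values came at 3 h, and all 6 night mice lay below the lowest of the 15 day mice, with or without the 2 libraries that stood apart. Lox was the one member of which this was true, and 0.083% of all genes tested had night libraries all below the day (0.212% in 22 libraries). In 22 libraries Lox fell by 0.74 (SE 0.11, adjusted p = 0.000123). The call was kept in 33 of 34 alternative analyses of the 24 libraries and lost with 16 h alone as night (adjusted p = 0.116). It was kept in 31 of 31 of the 22.

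Col3a1, the chain of type III collagen, was at 111, 118 and 58.9 CPM at 15 h and at 72.9, 102 and 84.8 CPM at 16 h. By day its lowest, median and highest values were 107, 129 and 178 CPM. The groups overlapped, with 4 of 6 night mice below the lowest day mouse and all 6 below the day median. The 4 were the 3 mice of 16 h and mouse 3 of 15 h. It fell by 0.57 (SE 0.11, adjusted p = 0.0106), and by 0.43 in 22 libraries (SE 0.07, adjusted p = 0.000332). Col3a1 was lost with the endothelial markers as a covariate, with 16 h alone as night or without mouse 1 of 16 h, and kept in 31 of 34 alternatives. In 22 libraries it was lost with 15 h alone as night (adjusted p = 0.252) and kept in 30 of 31.

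Col1a1 was at 203, 232 and 112 CPM at 15 h and at 166, 182 and 150 CPM at 16 h, against 192, 247 and 358 CPM as the lowest, median and highest day values. Again 4 of 6 night mice lay below every day mouse, the 3 of 16 h and mouse 3 of 15 h. It fell by 0.53 (SE 0.11, adjusted p = 0.0219), and by 0.39 in 22 libraries (SE 0.07, adjusted p = 0.00231). Leaving out mouse 1 or mouse 3 of 16 h ended the call in 24 libraries, where adjusted p reached 0.154 over the alternatives. In 22 libraries it was kept in 30 of 31 alternatives. It was lost there with 15 h alone as night, where the difference was -0.20 (adjusted p = 0.386). Its partner in type I collagen, Col1a2, differed by -0.09 (SE 0.08, adjusted p = 0.548) and was not called. Col1a2 was at 270, 313 and 277 CPM at 15 h and at 226, 240 and 227 CPM at 16 h, within the day range of 206 to 366 CPM. In mouse 3 of 15 h Col1a1 was thus the lowest of all libraries while Col1a2 was within the range of the other mice.

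Col11a1, a chain of type XI collagen, was at 19.3, 22.1 and 11.4 CPM at 15 h and at 16.0, 16.5 and 15.5 CPM at 16 h. Its day values ran from 18.1 through a median of 24.6 to 36.5 CPM, so the 3 mice of 16 h lay below every day mouse. It fell by 0.59 (SE 0.11, adjusted p = 0.00843), and by 0.47 in 22 libraries (SE 0.08, adjusted p = 0.000871). With 24 libraries the call was kept in 32 of 34 alternatives, and lost with the endothelial covariate and with 16 h alone as night. With 22 it was kept in 30 of 31 and lost with 15 h alone (adjusted p = 0.247). The other type XI chain measured here, Col11a2, differed by 0.0018 (SE 0.18, adjusted p = 0.997).

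Col5a1 was at 39.1, 37.9 and 17.03 CPM at 15 h and at 29.5, 34.4 and 27.2 CPM at 16 h, against a lowest, median and highest day value of 32.8, 44.1 and 56.6 CPM. It fell by 0.49 (SE 0.12, adjusted p = 0.0447), and by 0.36 in 22 libraries (SE 0.06, adjusted p = 0.00122). With 24 libraries this call was kept in 10 of 34 alternatives, and with 22 libraries in 30 of 31. The alternative that ended it in 22 libraries was 15 h alone as night (adjusted p = 0.343). Col5a3 was at 40.5, 46.1 and 42.7 CPM at 15 h and at 51.1, 51.0 and 49.5 CPM at 16 h, against 48.3, 58.2 and 64.5 CPM by day. For Col5a3 it was the mice of 15 h that lay below every day mouse. It fell by 0.30 (SE 0.06, adjusted p = 0.0163), and by 0.31 in 22 libraries (SE 0.06, adjusted p = 0.0027). Leaving out any 1 mouse of 16 h ended the Col5a3 call in 24 libraries, and leaving out mouse 1 of 15 h ended it in 22. With 16 h alone as night the Col5a3 call was lost in 24 and in 22 libraries. The third type V chain, Col5a2, differed by -0.26 (SE 0.12, adjusted p = 0.276).

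Loxl4 was called in 22 libraries alone. Its night values were 21.5 and 25.5 CPM at 15 h (8.2 CPM in the mouse left out) and 26.9, 30.7 and 30.4 CPM at 16 h, against 20.9, 35.4 and 53.8 CPM as the lowest, median and highest day values. It fell by 0.43 (SE 0.11, adjusted p = 0.026). With 24 libraries the difference was -0.53 (SE 0.19, adjusted p = 0.186). The call was kept in 25 of 31 alternatives. It was lost with the fibroblast and mural marker covariate, with 15 h or 16 h alone as night, and without mouse 1 or 2 of 15 h or mouse 1 of 16 h.

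Summed choroid endothelial markers were 622 ± 85.3 CPM at night (SD, n = 6) and 740 ± 179 CPM by day (SD, n = 15). Of these 10 markers 9 had a negative night difference, with a median of -0.37, and 0 were called (lowest adjusted p = 0.134). With these markers as a covariate in 24 libraries 1 member, Lox, was called lower at night, and in 22 libraries the same 7 were as without a covariate. Of the 14 fibroblast and mural markers 1 was called, Acta2, a smooth muscle actin, which was higher at night by 0.41 (SE 0.09, adjusted p = 0.0171). Their median night difference was -0.01. With the fibroblast and mural markers as a covariate 10 members were called lower in 24 libraries. In 22 libraries 7 were, with Col6a1 in place of Loxl4. The share of all genes called in the covariate fits is not given beside these counts. Whether the covariates changed the calls of the members more than those of other genes cannot be told from them. The part of vessel or stromal content in the night differences was not tested beyond these fits.

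**Figure D2:**
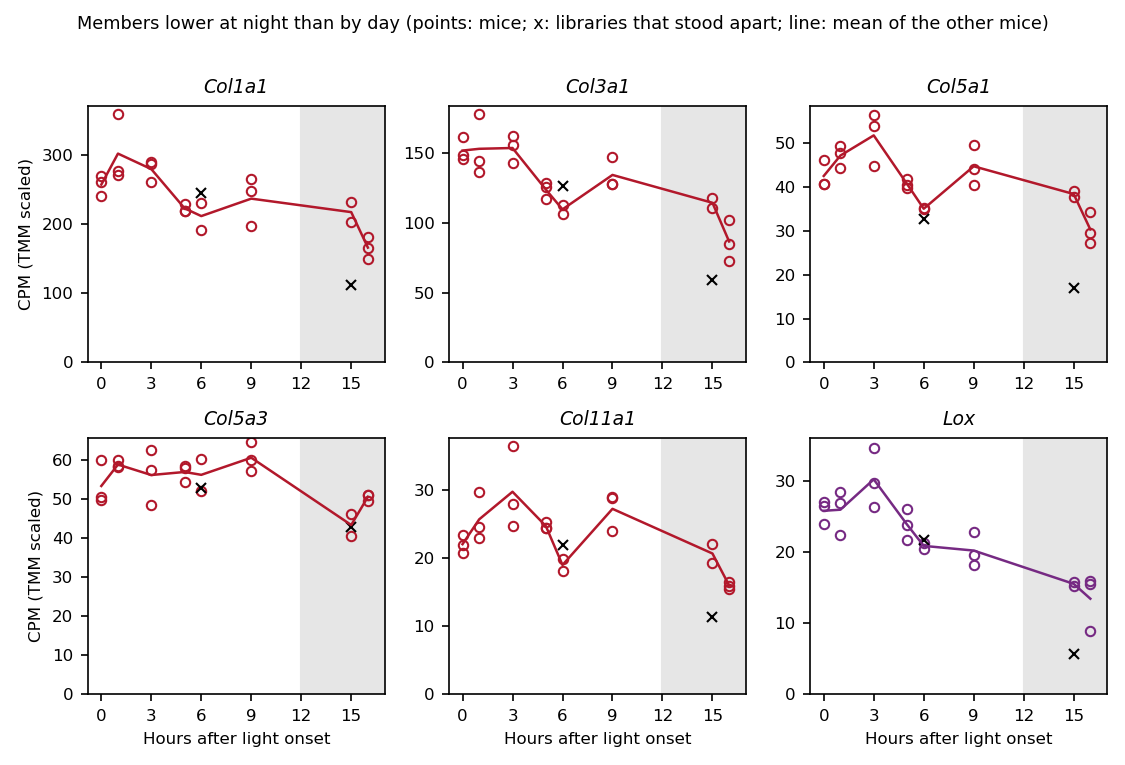
CPM of the 6 genes called lower at night with 24 libraries, against hours after light onset (grey: dark phase); circles are mice, crosses are mouse 3 of 6 h and of 15 h, and lines join the means of the other mice. All 6 Lox values of the dark phase lie below every value of 1 to 9 h, while the groups overlap for the 5 collagens.

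**Figure D3:**
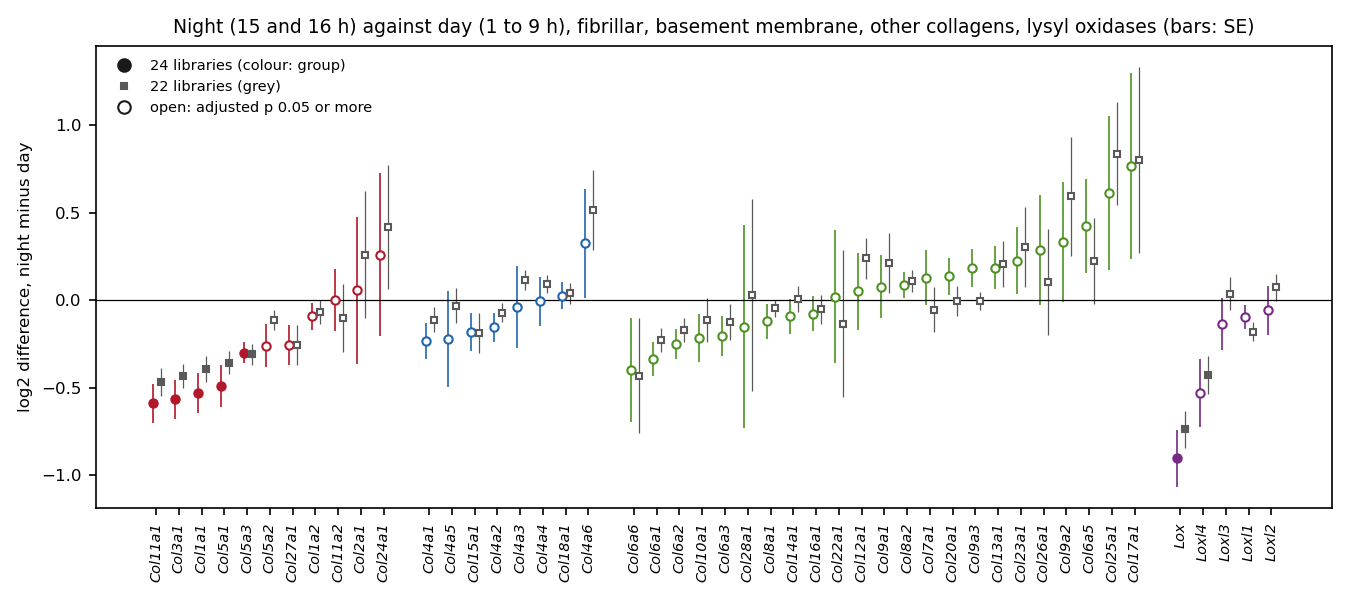
Log2 difference of night minus day with its SE for the 47 tested genes, by group, with 24 libraries (colour) and with 22 (grey); filled symbols have an adjusted p under 0.05. Filled symbols lie below 0 and are fibrillar chains or lysyl oxidases; no basement membrane or other chain is filled.

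The regions upstream of the 4 night-lower collagens with an entry in the RefSeq promoter table (GRCm38.p6) are given because these genes moved the same way. Each is the 250 bases before the annotated start, 5′ to 3′ on the gene's strand, with matches in capitals. Both strands were searched for 4 short motifs. The first was the CCAAT box, spelled as in its name. The TATA box was searched as TATAAA, and the GC box, a site for Sp factors, was searched as GGGCGG. The last was the E-box, the core bound by clock activators, searched as CACGTG. None of the 4 is contained in another, and lower-case bases are the rest of the window.
Col3a1 (chr1:45311288-45311537, plus strand): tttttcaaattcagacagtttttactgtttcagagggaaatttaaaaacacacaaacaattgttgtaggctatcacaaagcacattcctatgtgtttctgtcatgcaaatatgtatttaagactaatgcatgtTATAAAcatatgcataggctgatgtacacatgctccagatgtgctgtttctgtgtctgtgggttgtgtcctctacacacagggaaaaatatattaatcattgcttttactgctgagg
Col5a1 (chr2:27886175-27886424, plus strand): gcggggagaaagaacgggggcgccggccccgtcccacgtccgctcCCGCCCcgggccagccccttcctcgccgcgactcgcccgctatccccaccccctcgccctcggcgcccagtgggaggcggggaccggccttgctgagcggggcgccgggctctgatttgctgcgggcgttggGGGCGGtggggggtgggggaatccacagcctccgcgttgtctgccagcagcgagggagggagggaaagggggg
Col5a3 (chr9:20815068-20815317, minus strand): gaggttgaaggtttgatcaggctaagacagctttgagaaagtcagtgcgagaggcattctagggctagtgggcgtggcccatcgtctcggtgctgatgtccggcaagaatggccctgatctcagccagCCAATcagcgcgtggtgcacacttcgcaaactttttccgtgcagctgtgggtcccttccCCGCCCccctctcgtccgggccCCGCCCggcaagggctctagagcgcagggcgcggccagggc
Col11a1 (chr3:114030290-114030539, plus strand): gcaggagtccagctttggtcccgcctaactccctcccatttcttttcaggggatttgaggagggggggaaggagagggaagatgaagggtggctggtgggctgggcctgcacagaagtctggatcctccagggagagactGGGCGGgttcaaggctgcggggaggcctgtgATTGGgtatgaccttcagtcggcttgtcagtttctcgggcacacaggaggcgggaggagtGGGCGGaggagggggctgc

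The 4 windows had no match in common. Col3a1 had a TATA box 117 bases before the start. Col5a1 had GC boxes 205 and 73 bases before the start, Col5a3 a CCAAT box at 122 and GC boxes at 63 and 41, and Col11a1 a CCAAT box at 79 and GC boxes at 110 and 19. Col5a1, Col5a3 and Col11a1 thus shared the GC box, which 32.7% of all 32851 promoters of the table hold in this window. A CCAAT box is in 33.8%, a TATA box in 12.4% and the E-box in 6.02% of them. Of the 49 genes 36 have an entry, and 22 of these hold a GC box, 13 a CCAAT box, 5 a TATA box and 0 the E-box. A match is a run of letters and was not tested for binding.

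A daily shape with a single peak was fitted as a cosine with a period of 24 h, and the same genes led. Lox, Col3a1 and Col1a1 were called, 3 of 47, where 1.67% of all genes tested were called. The fitted peak of Lox came 2.57 ± 0.59 h after light onset (jackknife SE over 24 libraries), with a peak-to-trough log2 ratio of 1.09 ± 0.21 (SE, adjusted p = 0.00154). For Col3a1 the peak was at 2.2 ± 1.09 h and the ratio 0.66 ± 0.17 (adjusted p = 0.0216). For Col1a1 they were 2.01 ± 1.11 h and 0.63 ± 0.17 (adjusted p = 0.028). The 3 fitted peaks lay within their SE of each other. Lox kept this call in 33 of 34 alternatives, Col3a1 in 30 and Col1a1 in 22. Samples cover no time between 9 and 15 h or after 16 h. Without the 15 and 16 h libraries the calls of all 3 genes were lost (adjusted p = 0.0876 for Lox). The calls of Col3a1 and Col1a1 were also lost without the 0 h libraries.

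In 22 libraries 6 members had a called 24 h component, where 6.12% of all genes tested did. Col11a1, Col5a1 and Loxl1 joined the 3. The call was kept in 16 of 31 alternatives for Col11a1 and in 12 of 31 for Col5a1, and both were lost with the replicate block and without any 1 mouse of 16 h. Loxl1 is a gene at a high level with small change. It was at 216, 247 and 235 CPM at 0 h, 272, 258 and 234 CPM at 3 h, 184, 191 and 193 CPM at 9 h, and 204, 202 and 198 CPM at 16 h. The 3 mice of 9 h thus lay below all 3 mice of 0 h and of 3 h. Its fitted peak was 0.12 ± 0.43 h after light onset, with a peak-to-trough log2 ratio of 0.43 ± 0.08 (adjusted p = 0.000639), and the call was kept in 31 of 31 alternatives. With 24 libraries adjusted p was 0.0771. Mouse 3 of 15 h had 261 CPM of Loxl1, against 185 and 205 CPM in the other mice of that time.

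Variation over the 8 times, tested without a set shape, was called for 1 of 47 members with 24 libraries, where 1.08% of all genes tested were called. That gene was Col23a1, a transmembrane collagen. It was at 54.9, 33.4 and 56.7 CPM at 3 h and at 55.3, 36.9 and 33.6 CPM at 15 h, against 14.9, 14.6 and 16.8 CPM at 5 h and 20.7, 17.8 and 15.6 CPM at 16 h. The mice of 3 and 15 h lay above every mouse of 5 and 16 h. The adjusted p was 0.0349 with 24 libraries and 0.0246 with 22. The call was kept in 13 of 32 and 24 of 29 alternatives. Leaving out mouse 1 or 3 of 3 h or mouse 1 of 15 h ended it in 22 libraries.

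Without the 2 libraries 23 of 47 members varied over time, where 15.6% of all genes tested did. These were 6 of 11 fibrillar chains, 4 of 8 basement membrane chains, 10 of 23 other chains and 3 of 5 lysyl oxidases. The fibrillar chains were the 5 that were lower at night and Col1a2 (adjusted p = 0.0181). Between its highest and its lowest time mean Col1a2 changed by 0.47 on the log2 scale, from 1 h to 16 h. The lysyl oxidases were Lox, Loxl1 and Loxl4. Loxl2 and Loxl3 were not called (adjusted p = 0.23 and 0.14).

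The 4 basement membrane chains were 2 pairs with different profiles. Col4a1 (adjusted p = 0.00391) was at 138, 119 and 122 CPM at 1 h and at 78.0 and 88.4 CPM at 6 h (96.0 CPM in mouse 3), and Col4a2 (adjusted p = 0.00385) was highest at 1 h and lowest at 16 h. Col4a3 (adjusted p = 0.0112) was at 272, 297 and 305 CPM at 3 h and at 389, 373 and 422 CPM at 16 h. Col4a4 (adjusted p = 0.0229) was at 288, 307 and 326 CPM at 3 h and at 422, 397 and 412 CPM at 16 h. The 3 h and 16 h mice did not overlap for either gene of the second pair, whose highest time mean was that of 16 h. In mouse 3 of 15 h Col4a3 was at 59.5 CPM and Col4a4 at 152 CPM, and in mouse 3 of 6 h they were at 132 and 212 CPM. These were the 2 lowest libraries for both genes. Col4a5 and Col4a6 were not called by edgeR (adjusted p = 0.135 and 0.0736), while DESeq2 called both and limma-voom called Col4a6. With the fibroblast and mural marker covariate none of the 4 calls was kept (edgeR adjusted p = 0.0619 for Col4a1, 0.0815 for Col4a2, 0.131 for Col4a3 and 0.221 for Col4a4). Col4a3 and Col4a4 were also lost with the endothelial covariate, and Col4a4 without mouse 1 or 2 of 3 h. Col18a1 varied least of the group, with time means that differed by at most 0.31 (adjusted p = 0.173).

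Of the other chains Col8a1, the type VIII chain, was called (adjusted p = 0.00386). It was at 1681 and 1637 CPM at 6 h (1162 CPM in mouse 3) and at 1135, 1178 and 1320 CPM at 9 h, without overlap between the 2 times among the mice kept. The Col8a1 call was lost with either marker covariate. Col8a2 was not called (adjusted p = 0.243), and its time means differed by at most 0.28 on the log2 scale with 24 libraries. The type VI chains Col6a1 (adjusted p = 0.00121), Col6a2 (0.000753) and Col6a3 (0.0383), which build beaded filaments, were all highest at 1 h. The Col6a3 call was kept in 11 of 29 alternatives, and it was lost by limma-voom, with either marker covariate and in 15 of the fits that left out 1 library. Col6a2 was at 87.3, 79.5 and 71.8 CPM at 1 h and at 44.5, 54.0 and 51.9 CPM at 16 h. Col9a3 varied by 0.31 between time means (adjusted p = 0.0369), with mouse 3 of 15 h at 1881 CPM above all others, and the call was kept in 16 of 29 alternatives. The remaining calls were Col9a1 (adjusted p = 0.00593), Col10a1 (0.0203), Col13a1 (0.0205), Col16a1 (0.0214) and Col23a1. With the fibroblast and mural marker covariate the calls of Col1a2, Col5a3, Col9a1, Col9a3, Col13a1, Col16a1 and Col23a1 were lost as well, and 10 of the 23 calls over time were kept. Col10a1, the chain of growth plate cartilage, was at 16.3, 17.5 and 16.0 CPM at 5 h and at 7.48 and 8.87 CPM at 6 h (10.1 CPM in mouse 3). The Col10a1 call was kept in 26 of 29 alternatives. It was lost with the endothelial covariate and without mouse 1 or 2 of 6 h.

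**Figure D4:**
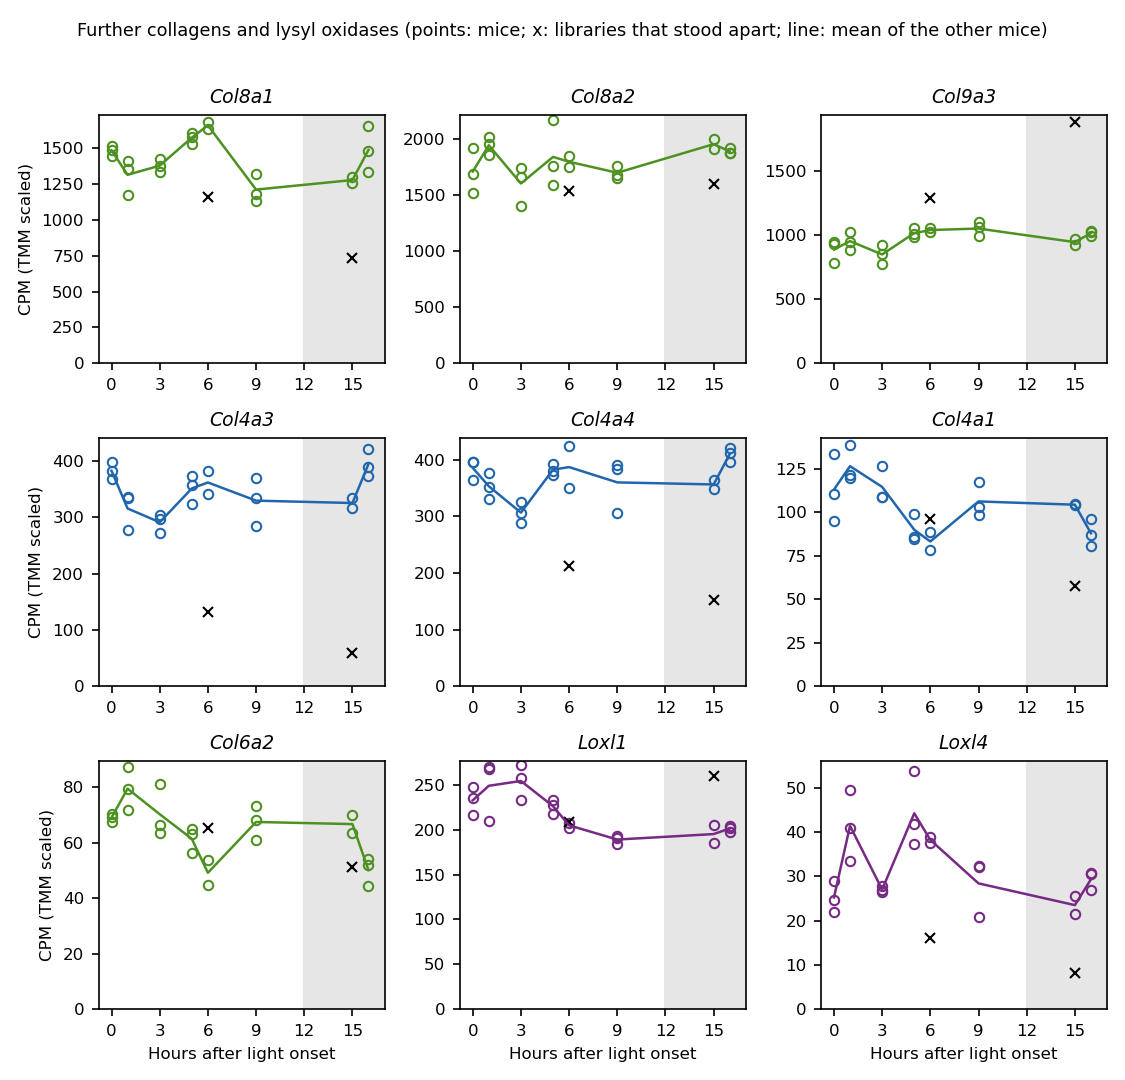
CPM of 9 further genes against hours after light onset (grey: dark phase); circles are mice, crosses are mouse 3 of 6 h and of 15 h, and lines join the means of the other mice. Col4a3 and Col4a4 are low at 3 h and high at 16 h, Col4a1 and Col6a2 are high at 1 h, and the crosses of Col4a3 at 132 and 59.5 CPM lie below every circle.

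Col9a1, Col9a2 and Col4a6 had, like Col23a1, their highest time mean of the 24 libraries at 3 h and a high value in mouse 1 of 15 h, and are set together after their values were seen. Without the 2 libraries that stood apart, the highest time mean of Col4a6 was that of 15 h. Col9a1 was at 10.8, 10.7 and 12.9 CPM at 3 h and at 11.3 CPM in mouse 1 of 15 h, against 3.47 to 8.88 CPM at 0, 5, 6, 9 and 16 h. Col9a2 had the widest range of the other chains, with time means up to 1.98 apart on the log2 scale. It was at 9.38, 9.69 and 8.38 CPM at 3 h and 10.5 CPM in mouse 1 of 15 h, and at 1.61 to 2.26 CPM in the mice of 5 h. Col4a6 was at 36.8, 32.0 and 54.5 CPM at 3 h and 63.4 CPM in mouse 1 of 15 h, and at 12.1 to 15.7 CPM in the mice of 5 h. Summed lens and ciliary body markers were also high in mouse 1 of 3 h (272 CPM) and of 15 h (245 CPM) and in mouse 2 of 1 h (192 CPM), against 19.9 to 121 CPM elsewhere. In mice 2 and 3 of 3 h they were 63.8 and 74.8 CPM. Mouse 2 of 1 h had 28.4 CPM of Col23a1, 32.4 CPM of Col4a6 and 7.38 CPM of Col9a2. Mouse 2 of 9 h had 38.1, 33.0 and 7.34 CPM of these genes, with a marker sum of 31.3 CPM. Mouse 2 of 15 h had 36.9 CPM of Col23a1 and 32.2 CPM of Col4a6, with a marker sum of 33.1 CPM. The part of such tissue in these 4 profiles was not tested.

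Each later time was set against light onset, and the 7 comparisons share the 3 mice of 0 h. With 24 libraries these were 3 mice against 3, and with 22 libraries 6 h and 15 h had 2 mice each. With 24 libraries 0 of 47 members were called in any of them by edgeR, where 1.14% of all genes tested were. By time, 0.0111% of all genes tested were called at 1 h, 0% at 3 h, 0.111% at 5 h, 0.166% at 6 h, 0.747% at 9 h, 0.41% at 15 h and 0.116% at 16 h. At an unadjusted p under 0.05, 21 of 47 members passed in at least 1 comparison, as did 7330 of the 18065 genes tested. DESeq2 called 5 and limma-voom 0. With 22 libraries 11 members were called, where 11.6% of all genes tested were. At 16 h 6 of 47 were called, all lower, against 2.18% of all genes tested. Lox fell by 0.94 (SE 0.16, adjusted p = 0.00162), Col3a1 by 0.80 (SE 0.10, adjusted p = 9.53e-05), Col1a1 by 0.63 (SE 0.11, adjusted p = 0.00333), Col5a1 by 0.48 (SE 0.10, adjusted p = 0.00758), Col6a2 by 0.46 (SE 0.10, adjusted p = 0.0165) and Col6a1 by 0.41 (SE 0.10, adjusted p = 0.0389). The calls of Lox, Col3a1 and Col1a1 were kept in 29 of 29 alternatives, that of Col5a1 in 27, Col6a2 in 26 and Col6a1 in 20. Col6a1 was lost by limma-voom, with the replicate block, with either marker covariate, without any 1 mouse of 0 h, or without mice 1 or 3 of 16 h. Col5a1 was lost without mouse 1 or 3 of 16 h, and Col6a2 with the endothelial covariate or when mouse 3 of 0 h or mouse 1 of 16 h was left out. These are 3 fibrillar chains, 2 type VI chains and 1 lysyl oxidase. At 15 h, Lox alone was called, lower by a log2 difference of -0.74 (SE 0.18, adjusted p = 0.0395), against 1.41% of all genes tested. This call was kept in 21 of 29 alternatives, and it was lost by limma-voom, with the replicate block, and without mouse 1 or 2 of 0, 6 or 15 h.

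At the light times the calls with 22 libraries were few. At 5 h 2 members were called, against 2.9% of all genes tested: Loxl4 rose by 0.81 (SE 0.16, adjusted p = 0.00701) and Col13a1, a transmembrane collagen, fell by 0.87 (SE 0.21, adjusted p = 0.0194). Loxl4 went from 21.9, 29.1 and 24.7 CPM at 0 h to 53.8, 41.8 and 37.3 CPM at 5 h without overlap. That call was lost with the fibroblast and mural marker covariate and without mouse 1 of 5 h, and the Col13a1 call with the same covariate or when mouse 2 or 3 of 0 h or mouse 1 or 2 of 5 h was left out. At 6 h Col6a2 fell by 0.48 (SE 0.12, adjusted p = 0.0274) and Col3a1 by 0.46 (SE 0.12, adjusted p = 0.0347), against 2.35% of all genes tested. Both were lost with either marker covariate, and when any 1 mouse of 0 h or mouse 1 of 6 h was left out. Col3a1 was also lost with the replicate block or without mouse 2 of 6 h. At 9 h, where 8.1% of all genes tested were called, Col8a1 fell by 0.29 (SE 0.08, adjusted p = 0.0236), Loxl1 fell by 0.30 (SE 0.08, adjusted p = 0.0241) and Col9a3 rose by 0.25 (SE 0.08, adjusted p = 0.0472). The Col9a3 call was kept in 9 of 29 alternatives, that of Col8a1 in 24 and that of Loxl1 in 27. Col8a1 was lost with the endothelial covariate and without mouse 1 or 2 of 0 or 9 h, and Loxl1 without mouse 2 of 0 h or mouse 1 of 9 h. At 1 h and 3 h 0 members were called by edgeR, against 0.337% and 0.299% of all genes tested. At an unadjusted p under 0.05, 9 and 10 of 47 members passed at these times, as did 2417 and 1897 of the 18388 genes tested.

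Chains of 1 collagen and neighbouring collagen genes were compared across the 22 mice, 9 pairs in all. All 3 type IV pairs lie head to head. The starts of Col4a1 and Col4a2 are 21 bases apart on chromosome 8, with the 5′ ends of the genes overlapping. The starts of Col4a3 and Col4a4 are 72 bases apart on chromosome 1, and those of Col4a5 and Col4a6 1309 bases apart on the X chromosome. The 71 bases between the starts of Col4a4 and Col4a3 are shown, as the shortest shared upstream region without overlap, 5′ to 3′ on the strand of Col4a4 (RefSeq promoter table, GRCm38.p6). They hold none of the 4 runs of letters searched.
Col4a4 to Col4a3 (chr1:82586850-82586920, minus strand): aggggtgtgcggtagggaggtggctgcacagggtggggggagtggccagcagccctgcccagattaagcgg

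Levels of the head-to-head pairs went together. Pearson's r was 0.95 for Col4a1 with Col4a2 (rho 0.96), 0.91 for Col4a3 with Col4a4 (rho 0.92) and 0.84 for Col4a5 with Col4a6 (rho 0.85). Without the 2 mice farthest from the median of the first gene, r was 0.94, 0.89 and 0.80. After the mean of each time was taken off, r was 0.93, 0.84 and 0.94, so the relation held among mice of the same time. Over all 24 libraries r was 0.96, 0.97 and 0.83. The type VI neighbours Col6a1 and Col6a2 had r = 0.91 (rho 0.91) and 0.89 without the 2 mice. Their r was 0.74 after removal of time means and 0.88 over 24 libraries. For each of these 4 pairs the permutation p of r and of rho was 1e-05, the smallest that 100000 permutations can give, and 2.2e-05 adjusted over the 9 pairs. As reads carry no strand, reads in the overlap of Col4a1 and Col4a2 cannot be told apart, and these are 0.295% of the exonic bases of Col4a1.

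Chains that share a molecule but not a locus differed in this. For Col1a1 with Col1a2, r was 0.79 (rho 0.78, adjusted permutation p = 3.6e-05 and 0.00011) and 0.72 without the 2 farthest mice. After removal of time means it was 0.80, and over 24 libraries 0.60. For Col9a1 with Col9a2, r was 0.79 (rho 0.66, adjusted permutation p = 7.5e-05 and 0.0018) and 0.75 without the 2 farthest. After removal of time means it was 0.53, and over 24 libraries 0.78. Col8a1 with Col8a2, by far the highest pair in level, had r = 0.06 (rho -0.02, adjusted permutation p = 0.87 and 0.94). Col5a1 with Col5a2 had r = 0.02 (rho 0.03, adjusted permutation p = 0.92 and 0.94), and after removal of time means 0.36. The neighbours Col3a1 and Col5a2, whose starts are 191744 bases apart, had r = 0.13 (rho 0.14, adjusted permutation p = 0.72 and 0.7), and after removal of time means 0.57. Without the 2 farthest mice, r was 0.04, 0.18 and 0.31 for these 3 pairs. Over all 24 libraries r was 0.26, 0.66 and 0.60 for them. It thus stayed low for Col8a1 with Col8a2. For Col5a1 with Col5a2 and Col3a1 with Col5a2, r was higher when mouse 3 of 6 h and of 15 h were included. Mouse 3 of 15 h had the lowest Col5a1, Col5a2 and Col3a1 of the 24 libraries. Which of these mice raised r was not tested.

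**Figure D5:**
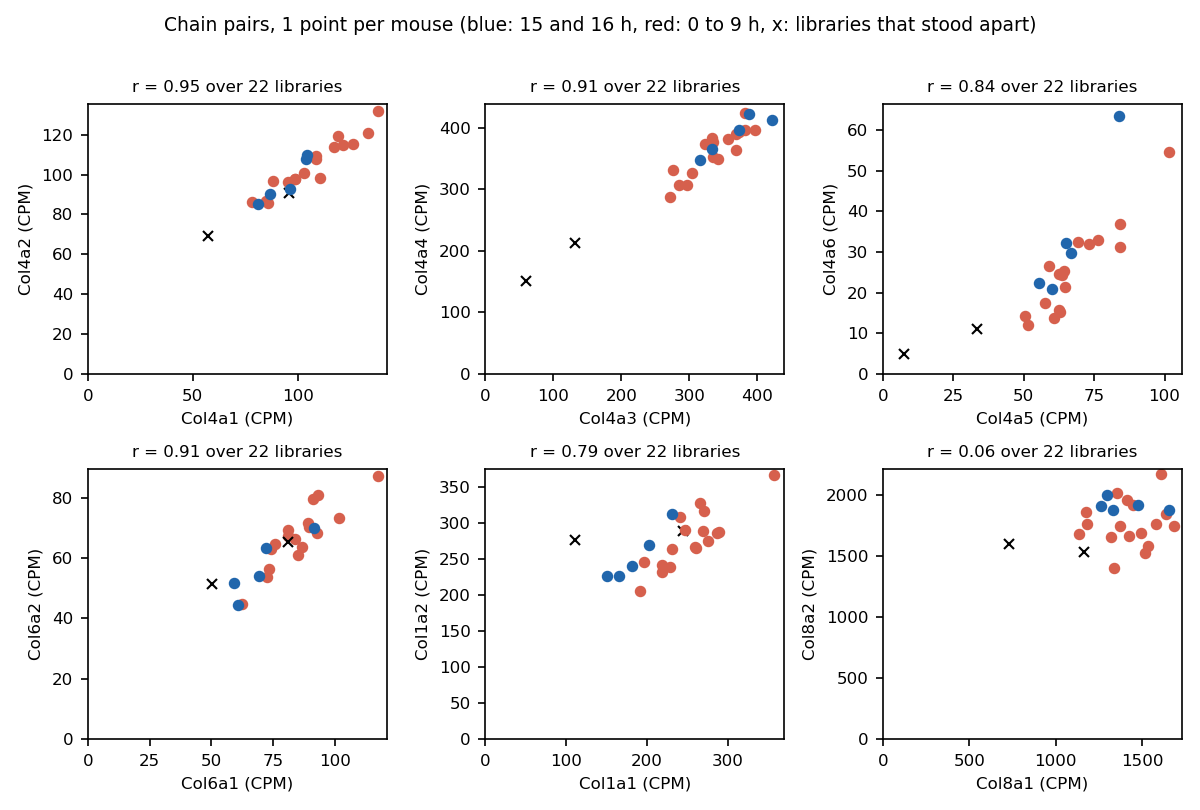
CPM of the 2 genes of 6 pairs, 1 point per mouse (red: 0 to 9 h, blue: 15 and 16 h, crosses: mouse 3 of 6 h and of 15 h, not in r). Points follow a line for the type IV and type VI pairs, with r from 0.84 to 0.95, and form a cloud for Col8a1 with Col8a2, with r = 0.06.

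Genes that make, process and bind collagen were counted from 6 lists. Of all genes tested, 1.39% were called at night and 1.08% over time with 24 libraries, and 4.63% and 15.6% with 22, by edgeR. With 24 libraries 3211 and 3070 of the 18065 genes tested passed an unadjusted p under 0.05 at night and over time. Of 14 genes of folding and secretion 1 was called at night, Creb3l1, which encodes a membrane-bound factor of the endoplasmic reticulum that activates collagen genes. Creb3l1 had its highest mean at 0 h and its lowest at 15 h, with 18.4 ± 1.98 CPM at 0 h, 17.7 ± 1.01 CPM at 1 h, 16.7 ± 2.76 CPM at 3 h, 13.9 ± 0.999 CPM at 5 h, 12.3 ± 0.44 CPM at 6 h, 11.4 ± 0.61 CPM at 9 h, 9.34 ± 1.31 CPM at 15 h and 9.57 ± 1.42 CPM at 16 h (SD, n = 3 each). Its night difference was -0.59 (SE 0.09, adjusted p = 0.00135) and -0.64 in 22 libraries (SE 0.09, adjusted p = 0.000101). Creb3l1 also varied over time (adjusted p = 0.00161) and had a 24 h component (adjusted p = 8.71e-06). The collagen chaperone Serpinh1 differed by -0.0043 at night (SE 0.09, adjusted p = 0.984). In 22 libraries Mia2, Fkbp10 and Mia3, which act in export and folding of collagen, varied over time as well by edgeR (adjusted p = 0.0146, 0.0213 and 0.0443), against 15.6% of all genes tested.

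Of 11 procollagen proteinases and enhancers tested 1 was called at night, and it was higher. Pcolce2, which speeds removal of the procollagen C-propeptide, was at 36.5 ± 2.17 CPM at 15 h and 40.9 ± 1.33 CPM at 16 h, against 27.7 ± 1.58 CPM at 3 h (SD, n = 3 each). Pcolce2 rose by 0.31 (SE 0.07, adjusted p = 0.0278), the opposite direction to the night-lower collagens. The median night difference of this list was -0.17. Of 14 hydroxylases and glycosyltransferases 0 were called at night by edgeR, DESeq2 or limma-voom with 24 libraries, and 0 passed an unadjusted p under 0.05. Colgalt2 alone varied over time with 22 by edgeR (adjusted p = 0.00259) and by limma-voom, and DESeq2 added P3h2 and P3h3. Colgalt2 had 8.95 ± 2.25 CPM at 3 h and 2.32 ± 0.65 CPM at 5 h (SD, n = 3 each).

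The 16 laminins, nidogens and other partners of type IV collagen had 0 calls at night by edgeR, DESeq2 or limma-voom with 24 libraries (1 at an unadjusted p under 0.05 by edgeR). Over time 0 were called by edgeR and limma-voom and 3 by DESeq2, with 5 at an unadjusted p under 0.05. With 22 libraries 10 of the 16 varied over time by edgeR, where 15.6% of all genes tested did, 11 by DESeq2 and 9 by limma-voom. The smallest adjusted p among them were those of Lama5 (0.000666), Lamb1 (0.00496), Hspg2, the heparan sulphate proteoglycan perlecan (0.00588), and Lamc1 (0.00592). Lama5 was at 71.7 ± 3.68 CPM at 3 h and 67.1 ± 12.7 CPM at 9 h, against 36.7 ± 3.03 CPM at 6 h (SD, n = 3 each). Pxdn, which forms the sulfilimine bonds of type IV collagen, was lower at night in 22 libraries by a log2 difference of -0.25 (SE 0.05, adjusted p = 0.00318). Of 14 collagenases and TIMPs 0 were called at night by edgeR or limma-voom with 24 libraries, where DESeq2 called Mmp2 and 1 passed an unadjusted p under 0.05. With 22 libraries Mmp2, a gelatinase, was lower by a log2 difference of -0.26 (SE 0.06, adjusted p = 0.0211). Of 8 collagen receptors tested 0 were called at night by edgeR, DESeq2 or limma-voom, with 1 at an unadjusted p under 0.05. Ddr2, a receptor kinase for fibrillar collagen, varied over time with 22 libraries by edgeR (adjusted p = 0.0104).

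The genes that edgeR called in no test were 26 of the 49, the 2 untested ones included. Over time in 22 libraries DESeq2 called 8 of the 26 (Col4a5, Col4a6, Col5a2, Col9a2, Col12a1, Col15a1, Col17a1 and Col25a1) and limma-voom 2 (Col4a6 and Col9a2). The fibrillar chains among the 26 were Col2a1, Col5a2, Col11a2, Col24a1 and Col27a1. Of these Col24a1 had the widest time means, 0.99 apart on the log2 scale, at 0 to 1.67 CPM, and Col27a1 the narrowest, 0.42 apart, at 10.7 to 22.7 CPM. Several chains had few reads. Col17a1, the hemidesmosome collagen, had 4 to 106 reads per library and Col25a1 0 to 86. Col17a1 had a night difference of 0.77 with an SE of 0.53 and an adjusted p of 0.462.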

How the data were processed

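RNA-seq of mouse RPE was analysed from the deposited table of raw counts per gene, with 1 column per mouse. Per the submitters' processing notes, STAR, HTSeq and build mm10 were used. Their settings, versions and annotation: not given in the sources used here, apart from these names. The deposited counts are whole numbers with totals of 14073440 to 17492470 per library, which sets the precision. Columns were matched to samples by the clock hour in the column name, with light onset at 7 am per the series' design text. Per the labels' protocols the kit was NEBNext Ultra RNA, which does not mark strand, so overlapping genes cannot be told apart. Of the 49 genes 49 were found by identifier in GENCODE vM21, 48 with the same coordinates, 16 share exonic bases with another gene, and 1 shares over 10%, Loxl3 (11.6%, with Htra2).

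Genes were kept by filterByExpr (minimum count 10), scaled by TMM and tested with edgeR 4.0.16 (R 4.3.3) by a robust quasi-likelihood F test on all 8 time groups. P-values were adjusted by Benjamini-Hochberg over every gene tested. A call is an adjusted p under 0.05. The tests were variation over the 8 times, cosine and sine terms of 24 h, the mean of 15 and 16 h against the mean of 1, 3, 5, 6 and 9 h, and each time against 0 h. The scripts were tested on simulated data. The p-values measure spread between mice. CPM carry TMM scaling, and log2 CPM has a pseudocount of 0.5. Alternatives were RLE scaling, DESeq2 1.42.0, limma-voom (limma 3.58.1), no filter, a replicate block, marker covariates, other night times and leaving out each library. The same alternatives for 22 libraries were chosen after seeing the data.

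The genes, classes, lists and comparisons were chosen with earlier results of these data known. Named genes are those called in any test, up to 25, the 3 highest of each class per kb, those with the widest and narrowest time means, and up to 4 called genes of each pathway list, with a few others named as partners. The tables that give promoter sequences are RefSeq's.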

Additional observations from a re-analysis of the deposited data

How the results depend on the processing

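Counts below are members called. For the alternative settings the share of all genes called is not set beside them. A higher or lower count is thus not a result about the members alone. With 24 libraries 1 varied over time. That count was 23 with 22 libraries, 18 by DESeq2, 2 by limma-voom, 8 with the fibroblast and mural covariate and 0 with the endothelial covariate, and 0 to 14 when 1 library was left out. Leaving out mouse 1, 2 or 3 of 15 h gave 4, 6 and 14. The 24 h component (3 called) gave 6 with 22 libraries, 5 by DESeq2, 5 with the fibroblast and mural covariate and 1 without the 0 h libraries. It gave 1 without the 15 and 16 h libraries, which was none of the 3. With 1 library left out it gave 1 to 4 (1 without mouse 1 or 3 of 16 h). Night against day (6 called) gave 10 with the fibroblast and mural covariate, 1 with the endothelial covariate, 0 with 16 h alone as night and 2 to 8 with 1 library left out. Calls in any comparison with 0 h (0 by edgeR) were 11 with 22 libraries, 5 by DESeq2, 6 with the fibroblast and mural covariate and 0 to 9 with 1 library left out (5, 9 and 5 for mouse 1, 2 and 3 of 15 h).

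In 22 libraries, variation over time (23 called) gave 37 without the filter, 10 with the fibroblast and mural and 14 with the endothelial covariate, and 19 to 24 with 1 library left out. The 24 h component (6) gave 3 without the 0 h libraries, 1 without the 15 and 16 h libraries and 4 to 7. Night against day (7) gave 15 without the filter, 2 with 15 h alone and 5 to 9. Calls against 0 h (11) gave 18 by DESeq2, 28 without the filter and 7 to 13 (7 without mouse 2 of 0 h). The cause was not tested. Where a library was left out of a time with 2, the lone mouse was taken to vary like the other groups.

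Across times, the mean correlation of deviations from the time means was 0.027 for the same replicate number and -0.012 for other numbers. Of 84 same-number pairs 26 were over 0.1. Without the 6 h and 15 h groups (18 libraries) the means were 0.069 and -0.035, with 19 of 45 same-number pairs over 0.1. Whether the numbers mark a shared batch cannot be told from these values. With the number as a replicate block the calls were 0 over time, 3 for the 24 h component, 6 at night and 0 against 0 h with 24 libraries, and 23, 4, 7 and 10 with 22. Over the alternatives for the genes called, 1553 values kept their call and 261 lost it. Variation over time has no direction. No night difference and no difference from 0 h of a called gene changed sign. Depth limits the precision of chains with few reads, such as Col17a1, Col24a1, Col25a1 and Col28a1.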
